A study of Mus musculus with 6 samples.

Results

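The 32 genes described here are those of the integrated stress response around the transcription factor ATF4 and those of serine, proline and one-carbon metabolism. They were picked by gene symbol from the 38924 gene rows of the deposited table, by a rule that names genes and uses no threshold on their values. All 32 were found, and all 32 passed the filter on low counts that left 12502 genes for testing. They comprise 13 stress genes (7 transcription factors and 6 effectors) and 19 biosynthetic enzymes, and the account contrasts these 2 groups.

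RNA was sequenced from CD4+ T cells of the spleen of C57 BL/6 mice, taken as naive cells and cultured for 72 h. In one group, 3 cultures received CX-4945 (silmitasertib), an ATP-competitive inhibitor of protein kinase CK2, a constitutively active serine/threonine kinase. The other 3 cultures received the solvent DMSO. The dose of CX-4945 is 2 mM in the labels, and its unit could not be verified from the files. Cells of both groups were activated with antibodies to CD3 and CD28 and exposed to IL-6, IL-23 and TGFb1, a mixture used to drive naive cells towards Th17 cells. CX-4945 is known to inhibit other kinases as well, so the comparison is of a compound and not of the loss of CK2 alone.

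Libraries carry the numbers of the table, 2, 4 and 6 for CX-4945 and 1, 3 and 5 for DMSO, and values below are in that order. They held 24239681, 22178614 and 26148189 unique exon reads with CX-4945, and 24650050, 24150828 and 24279368 with DMSO. Levels are CPM, reads scaled by TMM to a common library size, and a count of 3 reads equals 0.112 to 0.133 CPM. The 6 CD4 T cell markers listed (Cd3e, Cd3d, Cd3g, Cd4, Lck and Cd28) were all detected and summed to 1897 to 1934 CPM with CX-4945 and 2990 to 3144 CPM with DMSO, with 5 of 6 lower. The 5 macrophage markers summed to 17.3 to 31.8 CPM with CX-4945 and 11.2 to 17.7 CPM with DMSO, with 1 of the 4 that could be tested, Cd68, higher. The 4 NK cell markers summed to 5.66 to 7.11 CPM with CX-4945 and 4.66 to 4.93 CPM with DMSO, and both of the 2 that could be tested were higher. The 6 B cell markers summed to 12.7 to 13.7 CPM with CX-4945 and 11.2 to 19.3 CPM with DMSO, and 0 of the 5 that could be tested passed in edgeR, 0 of them also at an unadjusted p under 0.05. The 2 CD8 T cell markers summed to 14.2 to 23.1 CPM with CX-4945 and 19.9 to 28.0 CPM with DMSO (1 of 2 lower), and the 4 dendritic cell markers to 4.34 to 7.47 CPM with CX-4945 and 7.76 to 8.77 CPM with DMSO (1 of 4 lower). The 4 erythroid markers summed to under 1 CPM in every library. The part of other cells in the results was not tested. In RNA from whole cultures, fewer cells of a type and less RNA per cell cannot be told apart.

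As background, stress kinases such as PERK and GCN2 phosphorylate the translation factor eIF2, which slows most protein synthesis but raises translation of the Atf4 message. ATF4 protein, paired with C/EBP family members, binds C/EBP-ATF response elements and switches on genes of amino acid synthesis, amino acid uptake and tRNA charging, together with stress effectors such as CHOP and TRIB3. Serine made from glycolytic intermediates feeds one-carbon units into the folate cycle for purine and thymidylate synthesis, and activated T cells are known to depend on this route when they divide.

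Of the 32 genes, 20 were higher and 6 lower with CX-4945, and 6 did not pass the test. Genes were called by edgeR's quasi-likelihood F test at an adjusted p under 0.05, with Benjamini-Hochberg adjustment over all 12502 genes. Most of the transcriptome passed it: 61.9% of all genes tested were called, 30.6% higher and 31.3% lower. Against this background, 81.2% of the 32 were called, 62.5% higher and 18.8% lower. Their median log2 fold change was 0.58, against -0.00286 over all genes tested. The 3 CX-4945 libraries lay above all 3 DMSO libraries for 19 of the 32, as for 35.0% of all genes, and below them for 6, as for 34.8% of all genes.

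The biosynthetic enzymes rose more often than they fell, and the stress genes were more mixed. Of 19 enzymes, 13 rose (68.4%) and 3 fell (15.8%), with a median log2 fold change of 0.68. Of 13 stress genes, 7 rose (53.8%) and 3 fell (23.1%), with a median of 0.39. The difference between these 2 groups was not tested. Under a test that asks for a change above 1.5-fold (glmTreat of edgeR), 9 of the 32 were higher (28.1%) and 3 lower (9.38%), against 5.29% and 9.61% of all genes. The 9 were Nupr1, Trib3, Chac1, Phgdh, Shmt1, Shmt2, Mthfd1, Aldh18a1 and Asns, and the 3 were Ddit4, Vldlr and Cbs.

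**Figure D1:**
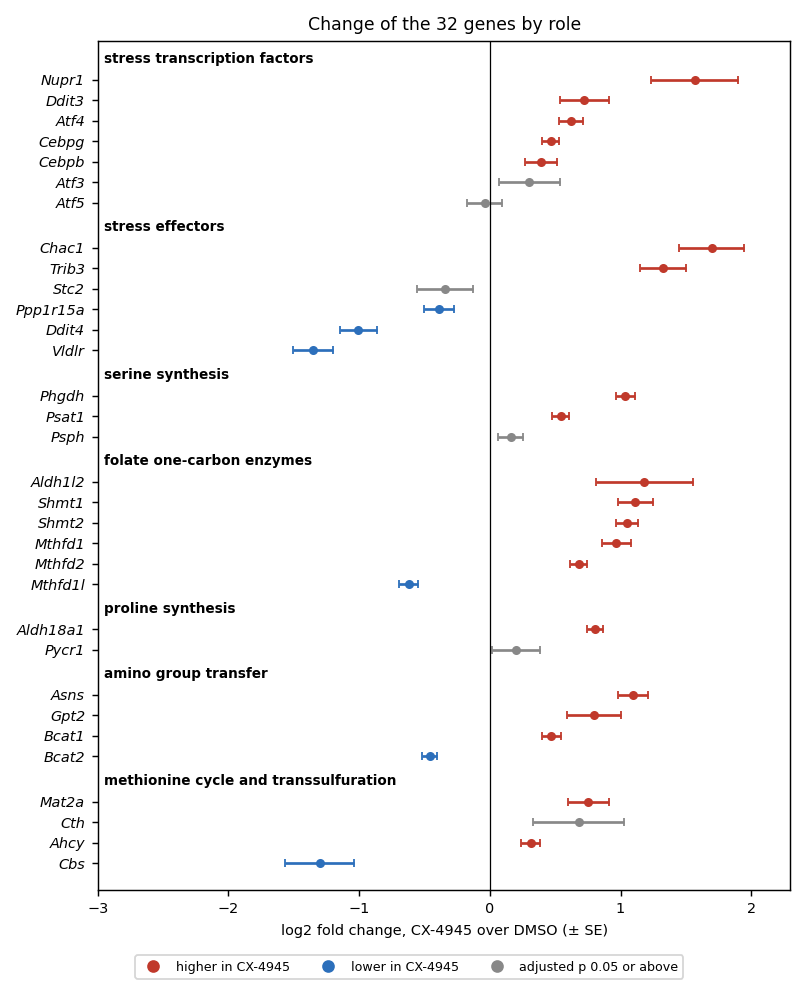
Log2 fold change of CX-4945 over DMSO for each of the 32 genes, grouped by role, with bars of 1 SE from the edgeR fit on 3 libraries per group. Red points passed the test as higher, blue as lower, and grey did not pass. Most enzymes lie right of 0, while the 6 stress effectors spread from -1.35 (Vldlr) to 1.70 (Chac1).

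Of the 7 stress transcription factors, 5 rose (71.4%), 0 fell and 2 did not pass. The shares over all genes tested were 30.6% higher and 31.3% lower. Atf4, at the centre of the response (mm10 chromosome 15, 80255184 to 80257540), had 373, 330 and 431 CPM in CX-4945 cells, against 237, 253 and 247 CPM in DMSO cells. All 3 CX-4945 libraries lay above the DMSO libraries, a 1.54-fold difference (log2 fold change 0.62 ± 0.09 SE, edgeR adjusted p = 0.000575). Since ATF4 is controlled largely at translation, its message level is not a measure of its protein. Per kilobase of exon, Atf4 stood at 219 ± 29.2 RPKM with CX-4945 and 143 ± 4.46 RPKM with DMSO (SD, n = 3 each).

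Ddit3, which encodes the pro-apoptotic factor CHOP, had 41.5, 35.8 and 58.9 CPM with CX-4945, against 26.2, 23.9 and 32.6 CPM with DMSO. It was 1.65-fold higher (log2 fold change 0.72 ± 0.19 SE, edgeR adjusted p = 0.0095), and its groups were separate. Cebpg, a dimer partner of ATF4, had 96.8, 93.1 and 105 CPM with CX-4945 and 69.0, 68.3 and 76.5 CPM with DMSO, a log2 fold change of 0.46 ± 0.07 (edgeR adjusted p = 0.000598). Cebpb, a related C/EBP factor, had 10.5, 10.7 and 12.0 CPM with CX-4945 and 8.94, 7.18 and 9.24 CPM with DMSO. Its log2 fold change of 0.39 ± 0.12 (edgeR adjusted p = 0.0231) no longer passed without CX-4945 library 6 (adjusted p = 0.0762).

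Nupr1, a small stress-induced chromatin protein, had the largest change of the 7 factors at a low level. It had 6.25, 4.42 and 9.58 CPM with CX-4945 and 1.80, 1.80 and 3.27 CPM with DMSO, 2.97-fold higher (log2 fold change 1.57 ± 0.33, edgeR adjusted p = 0.00368). Atf3, an early stress-induced ATF family member, had 9.52, 7.38 and 14.4 CPM with CX-4945 and 8.32, 7.35 and 9.80 CPM with DMSO. These groups overlapped, and the difference did not pass (log2 fold change 0.30 ± 0.23, edgeR adjusted p = 0.283). Atf5, a relative of ATF4 linked to the mitochondrial stress response, had 17.2, 14.2 and 19.6 CPM with CX-4945 and 17.1, 15.6 and 19.7 CPM with DMSO. Its groups covered nearly the same range (log2 fold change -0.037 ± 0.13, edgeR adjusted p = 0.824).

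Of the 6 stress effectors, 2 rose, 3 fell and 1 did not pass. For comparison, 30.6% of all genes tested were called higher and 31.3% lower. Chac1, which degrades glutathione and is known as an ATF4 target, had 10.4, 6.36 and 13.1 CPM with CX-4945, against 3.09, 3.05 and 3.10 CPM with DMSO. The DMSO libraries were nearly identical and the CX-4945 libraries all higher but 2.06-fold apart from lowest to highest. The fold change was 3.25, the largest of the 32 genes (log2 fold change 1.70 ± 0.25, edgeR adjusted p = 0.000589). Trib3, a pseudokinase that binds ATF4 and AKT, had 52.1, 44.2 and 75.2 CPM with CX-4945 and 22.4, 22.1 and 24.1 CPM with DMSO, 2.51-fold higher (log2 fold change 1.33 ± 0.18, edgeR adjusted p = 0.000365).

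The effectors that fell include genes known to be induced by stress in other settings. Vldlr, the very low density lipoprotein receptor (mm10 chromosome 19, 27216484 to 27254231), had 53.5, 54.9 and 79.4 CPM with CX-4945 and 154, 147 and 180 CPM with DMSO. It was 2.55-fold lower, with groups far apart (log2 fold change -1.35 ± 0.15, edgeR adjusted p = 0.000155). Ddit4, which encodes REDD1, an inhibitor of mTORC1 that is also induced by hypoxia, had 513, 469 and 626 CPM with CX-4945 and 1081, 889 and 1260.3 CPM with DMSO. It was 2.01-fold lower (log2 fold change -1.01 ± 0.14, edgeR adjusted p = 0.000478).

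Ppp1r15a encodes GADD34, the inducible subunit that directs a phosphatase to eIF2. It had 55.0, 47.6 and 65.4 CPM with CX-4945 and 69.8, 70.0 and 80.2 CPM with DMSO, a log2 fold change of -0.39 ± 0.11 (edgeR adjusted p = 0.0163). That call was lost without CX-4945 library 2 (adjusted p = 0.0556). Stc2, a secreted stanniocalcin, had 35.1, 26.9 and 50.4 CPM with CX-4945 and 44.9, 41.0 and 57.3 CPM with DMSO. The groups overlapped (log2 fold change -0.35 ± 0.21, edgeR adjusted p = 0.191), and the difference passed only when CX-4945 library 6 was left out (log2 fold change -0.62, adjusted p = 0.0134).

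**Figure D2:**
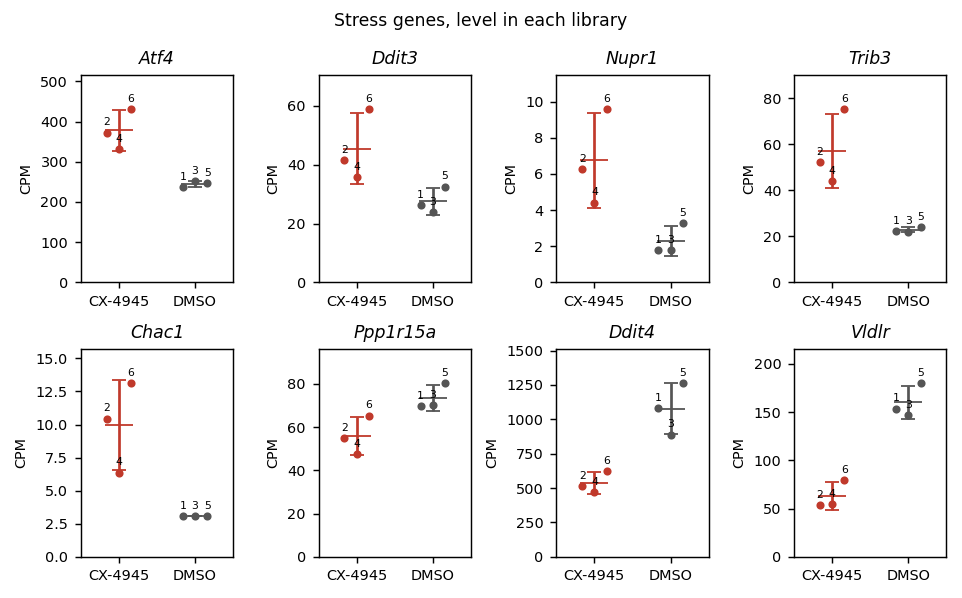
Level in CPM of 8 stress genes in each of the 6 libraries, CX-4945 left and DMSO right, with points numbered by library and bars for the mean and SD (n = 3). Chac1 and Trib3 lie higher with CX-4945 and Ddit4 and Vldlr lower, and library 6 is the highest CX-4945 point in each of the 8 panels.

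Because ATF4 target genes are known for C/EBP-ATF response elements, the promoters were read for the element's core, TGATGNAA, on both strands (TTNCATCA on the opposite strand). RefSeq windows on GRCm38.p6 from 250 bases before to 50 after the start were given for 30 of the 32 genes, all but Aldh1l2 and Cth. The core was present in 7 of these 30 genes (23.3%), against 4.51% of all 27025 genes with a window. It was present in 5 of 13 stress genes (38.5%) and in 2 of 17 enzymes (11.8%). The list was picked around ATF4, so these shares give no independent support for a link to ATF4. The 7 sites, each with 6 bases on either side and on the strand that carries the core, are shown with the core in capitals to set them beside the direction of each gene.
Nupr1: cctgtcTGATGCAAtctggc
Trib3: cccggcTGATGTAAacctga
Chac1: caggagTGATGCAAcggcag
Asns: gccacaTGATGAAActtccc
Vldlr: gagcgcTGATGCAActattg
Atf3: acttggTGATGCAAgtgcga
Pycr1: tgtgtaTGATGCAAtgcaca

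Genes with the core did not share a direction. Nupr1, Trib3, Chac1 and Asns rose, Vldlr fell, and Atf3 and Pycr1 did not pass the test. The core began 110 bases before the start in Nupr1 (chr7:126625573-126625580) and in Atf3 (chr1:191183436-191183443). It began 193 bases before it in Chac1 (chr2:119351049-119351056), 103 in Pycr1 (chr11:120643844-120643851) and 23 in Asns (chr6:7693225-7693232). In Vldlr it lay 200 bases before the second of its 2 starts (chr19:27216820-27216827), and in Trib3 it lay 14 bases after the start (chr2:152344039-152344046). A match of letters is not evidence of binding, and the absence of these letters from the other windows says nothing of elements elsewhere in those genes.

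The whole windows of Chac1 (chr2:119350992-119351291, plus strand), of Asns (chr6:7693160-7693459, minus strand) and of Vldlr (chr19:27216770-27217069, plus strand) are given to set 2 genes that rose beside 1 that fell. They run 5′ to 3′ on the gene's strand, with the core in capitals.
Chac1: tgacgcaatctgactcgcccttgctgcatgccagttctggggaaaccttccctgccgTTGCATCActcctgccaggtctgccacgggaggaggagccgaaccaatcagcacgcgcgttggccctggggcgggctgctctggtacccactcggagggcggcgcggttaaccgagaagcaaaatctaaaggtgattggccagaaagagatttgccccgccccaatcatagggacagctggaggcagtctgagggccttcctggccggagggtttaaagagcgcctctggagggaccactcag
Asns: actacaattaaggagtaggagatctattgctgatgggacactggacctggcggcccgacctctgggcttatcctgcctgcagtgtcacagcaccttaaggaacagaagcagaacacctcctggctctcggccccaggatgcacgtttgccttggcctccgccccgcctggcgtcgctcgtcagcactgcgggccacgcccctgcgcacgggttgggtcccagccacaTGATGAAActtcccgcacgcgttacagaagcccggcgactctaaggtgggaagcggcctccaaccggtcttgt
Vldlr: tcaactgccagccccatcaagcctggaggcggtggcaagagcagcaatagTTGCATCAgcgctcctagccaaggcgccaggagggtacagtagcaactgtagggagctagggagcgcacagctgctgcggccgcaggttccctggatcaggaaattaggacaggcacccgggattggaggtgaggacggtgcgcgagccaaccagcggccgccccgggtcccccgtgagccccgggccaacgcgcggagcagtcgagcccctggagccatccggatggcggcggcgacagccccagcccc

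Of the 3 enzymes that make serine from the glycolytic intermediate 3-phosphoglycerate, 2 rose (66.7%) and 1 did not pass. Among all genes tested, 30.6% were called higher. Phgdh, which catalyses the first and committed step (mm10 chromosome 3, 98313170 to 98339990), had 75.3, 69.9 and 83.9 CPM in CX-4945 cells, against 36.6, 38.6 and 36.4 CPM in DMSO cells. Every CX-4945 library was well above every DMSO library, 2.05-fold on the whole (log2 fold change 1.04 ± 0.07, edgeR adjusted p = 2.91e-05). Psat1, the transaminase of the middle step, had 291, 280 and 326 CPM with CX-4945 and 200, 205 and 212 CPM with DMSO, 1.46-fold higher (log2 fold change 0.54 ± 0.07, edgeR adjusted p = 0.000223). Psph, the phosphatase that releases serine, had 53.0, 47.7 and 61.8 CPM with CX-4945 and 50.9, 45.1 and 49.6 CPM with DMSO. The groups overlapped, and the difference did not pass (log2 fold change 0.16 ± 0.10, edgeR adjusted p = 0.183).

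All 6 folate one-carbon enzymes passed, 5 higher (83.3%) and 1 lower (16.7%). Of all genes tested, 61.9% passed, 30.6% higher and 31.3% lower. Among the 5 is Aldh1l2, whose groups overlapped and whose call depended on single libraries, as described below. Shmt1 and Shmt2, the cytosolic and mitochondrial enzymes that move a carbon from serine to tetrahydrofolate, rose by similar amounts. Shmt2 (mm10 chromosome 10, 127517123 to 127522444) had 406, 358 and 442 CPM with CX-4945 and 189, 207 and 186 CPM with DMSO, 2.07-fold higher (log2 fold change 1.05 ± 0.08, edgeR adjusted p = 3.82e-05). Shmt1 had 89.5, 88.4 and 86.5 CPM with CX-4945 and 40.6, 49.7 and 32.02 CPM with DMSO, 2.16-fold higher (log2 fold change 1.11 ± 0.13, edgeR adjusted p = 0.000217).

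The steps after SHMT differed in direction. Mthfd2, the mitochondrial dehydrogenase and cyclohydrolase, had 136, 125 and 146 CPM with CX-4945 and 82.7, 86.3 and 84.7 CPM with DMSO, 1.60-fold higher (log2 fold change 0.68 ± 0.07, edgeR adjusted p = 8.17e-05). Mthfd1, the trifunctional cytosolic enzyme, had 159, 155 and 151 CPM with CX-4945 and 77.0, 94.5 and 66.7 CPM with DMSO, 1.95-fold higher (log2 fold change 0.97 ± 0.11, edgeR adjusted p = 0.000179). Mthfd1l, the mitochondrial ligase that releases formate to the cytosol (mm10 chromosome 10, 3973118 to 4167081), went the other way. It had 331, 313 and 354 CPM with CX-4945 and 519, 465 and 550 CPM with DMSO, 1.54-fold lower with no overlap (log2 fold change -0.62 ± 0.08, edgeR adjusted p = 0.000224).

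Per kilobase, Mthfd1l and Shmt2 changed places. With CX-4945, Shmt2 stood at 174 ± 18.2 RPKM and Mthfd1l at 75.0 ± 4.58 RPKM, whereas with DMSO Shmt2 stood at 84.3 ± 4.97 RPKM and Mthfd1l at 115 ± 9.71 RPKM (SD, n = 3 each). Aldh1l2, the mitochondrial 10-formyltetrahydrofolate dehydrogenase, was low, with 8.47, 6.59 and 16.6 CPM with CX-4945 and 3.84, 3.51 and 6.66 CPM with DMSO. CX-4945 library 4 lay just below DMSO library 5, and library 6 was far above the other CX-4945 libraries. Its log2 fold change of 1.18 ± 0.37 (edgeR adjusted p = 0.0225) was 0.69 without CX-4945 library 6 (adjusted p = 0.0608), and the call was also lost without DMSO library 1 (adjusted p = 0.0854) or DMSO library 3 (adjusted p = 0.0511).

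**Figure D3:**
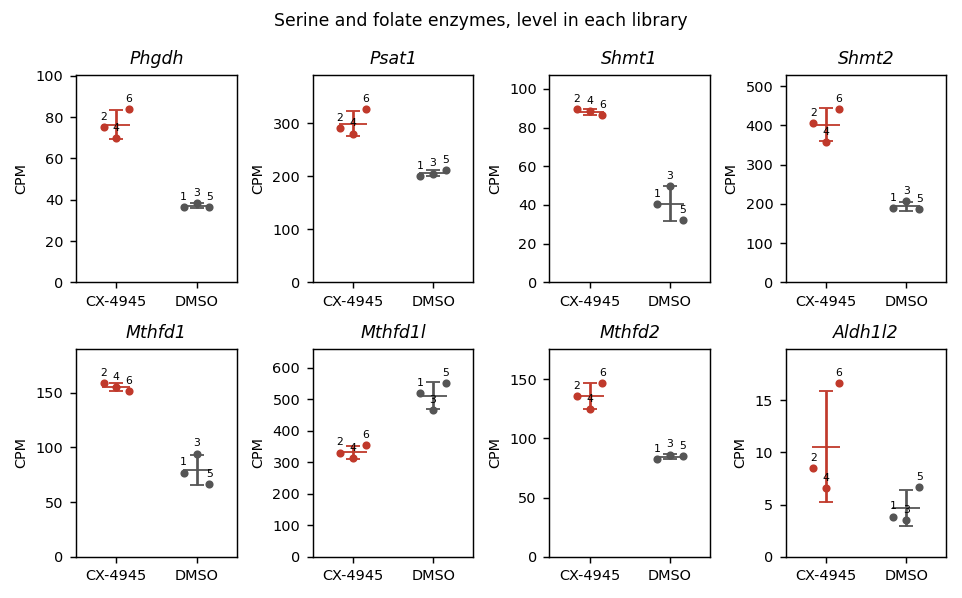
Level in CPM of 8 serine and folate enzymes in each library, CX-4945 left and DMSO right, with points numbered by library and bars for the mean and SD (n = 3). Of the 8, 7 are higher with CX-4945 and Mthfd1l is lower, and the groups of Aldh1l2 overlap.

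For proline synthesis, Aldh18a1, which turns glutamate into the proline and ornithine precursor, had 258, 247 and 268 CPM with CX-4945 and 146, 156 and 140 CPM with DMSO. It was 1.75-fold higher with tight groups (log2 fold change 0.81 ± 0.06, edgeR adjusted p = 3e-05). Pycr1, the mitochondrial reductase of the last step, had 12.2, 10.6 and 15.1 CPM with CX-4945 and 11.2, 8.43 and 13.4 CPM with DMSO. These groups overlapped (log2 fold change 0.20 ± 0.19, edgeR adjusted p = 0.374).

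Of the 4 enzymes grouped under amino group transfer, 3 rose (75.0%) and 1 fell (25.0%). Among all genes tested, 30.6% were called higher and 31.3% lower. Asns, asparagine synthetase, had 104, 93.2 and 131 CPM with CX-4945 and 51.5, 48.7 and 53.2 CPM with DMSO, 2.14-fold higher (log2 fold change 1.10 ± 0.12, edgeR adjusted p = 0.000123). Gpt2, the mitochondrial alanine transaminase, had 19.1, 15.6 and 29.1 CPM with CX-4945 and 12.2, 11.6 and 13.0 CPM with DMSO, 1.74-fold higher (log2 fold change 0.80 ± 0.21, edgeR adjusted p = 0.00995).

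The 2 branched-chain transaminases moved in opposite directions. Bcat1, the cytosolic enzyme, had 84.3, 76.9 and 88.2 CPM with CX-4945 and 57.3, 65.1 and 57.6 CPM with DMSO (log2 fold change 0.47 ± 0.07, edgeR adjusted p = 0.000851). Bcat2, the mitochondrial enzyme, had 59.5, 57.9 and 62.9 CPM with CX-4945 and 85.4, 80.1 and 82.6 CPM with DMSO (log2 fold change -0.46 ± 0.06, edgeR adjusted p = 0.000219). Neither pair of groups overlapped, and per kilobase Bcat2 was the higher of the 2 in both groups, at 15.4 ± 0.659 RPKM with CX-4945 and 21.2 ± 0.681 RPKM with DMSO, while Bcat1 stood at 8.92 ± 0.616 RPKM with CX-4945 and 6.44 ± 0.475 RPKM with DMSO (SD, n = 3 each).

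In the methionine cycle, Mat2a, which makes the methyl donor S-adenosylmethionine, had 252, 237 and 228 CPM with CX-4945 and 134, 181 and 110.5 CPM with DMSO, 1.69-fold higher (log2 fold change 0.75 ± 0.15, edgeR adjusted p = 0.0031). Ahcy, which clears S-adenosylhomocysteine, had 35.8, 36.9 and 38.9 CPM with CX-4945 and 31.6, 27.2 and 31.2 CPM with DMSO, a small difference between separate groups (log2 fold change 0.31 ± 0.08, edgeR adjusted p = 0.00702). The transsulfuration genes that turn homocysteine into cysteine were both low. Cbs had 0.847, 0.884 and 1.27 CPM with CX-4945 and 2.63, 1.80 and 3.05 CPM with DMSO, 2.47-fold lower (log2 fold change -1.30 ± 0.27, edgeR adjusted p = 0.00307). Cth had 6.21, 4.33 and 11.3 CPM with CX-4945 and 4.05, 3.55 and 6.11 CPM with DMSO, overlapping groups that did not pass (log2 fold change 0.68 ± 0.35, edgeR adjusted p = 0.12) unless CX-4945 library 4 was left out (log2 fold change 0.94, adjusted p = 0.0383).

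Ranked per kilobase of exon on unique reads, which hold only part of the reads of Ahcy, Phgdh and 4 other genes described below, Ddit4 was the highest of the 32 in both groups, at 318 ± 48.0 RPKM with CX-4945 and 639 ± 110 RPKM with DMSO (SD, n = 3 each), and Atf4 was next in both. Below them, the order differed: Shmt2 and Mat2a came next with CX-4945, Mat2a at 85.3 ± 4.31 RPKM, and Mthfd1l and Shmt2 came next with DMSO. Mthfd1l followed Mat2a with CX-4945. Among the stress genes, Trib3 and Ddit3 stood at nearly the same level with CX-4945 (26.9 ± 7.59 and 26.5 ± 7.02 RPKM), well within their spread, and at 10.7 ± 0.511 and 16.1 ± 2.63 RPKM with DMSO. Vldlr stood at 6.22 ± 1.44 RPKM with CX-4945 and 15.9 ± 1.72 RPKM with DMSO, and Chac1 at 6.09 ± 2.07 RPKM with CX-4945 and 1.88 ± 0.0165 RPKM with DMSO, so these 2 effectors met at a similar level with CX-4945. Cbs was the lowest in CX-4945 cells, at 0.299 ± 0.0706 RPKM, against 0.746 ± 0.192 RPKM in DMSO cells.

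**Figure D4:**
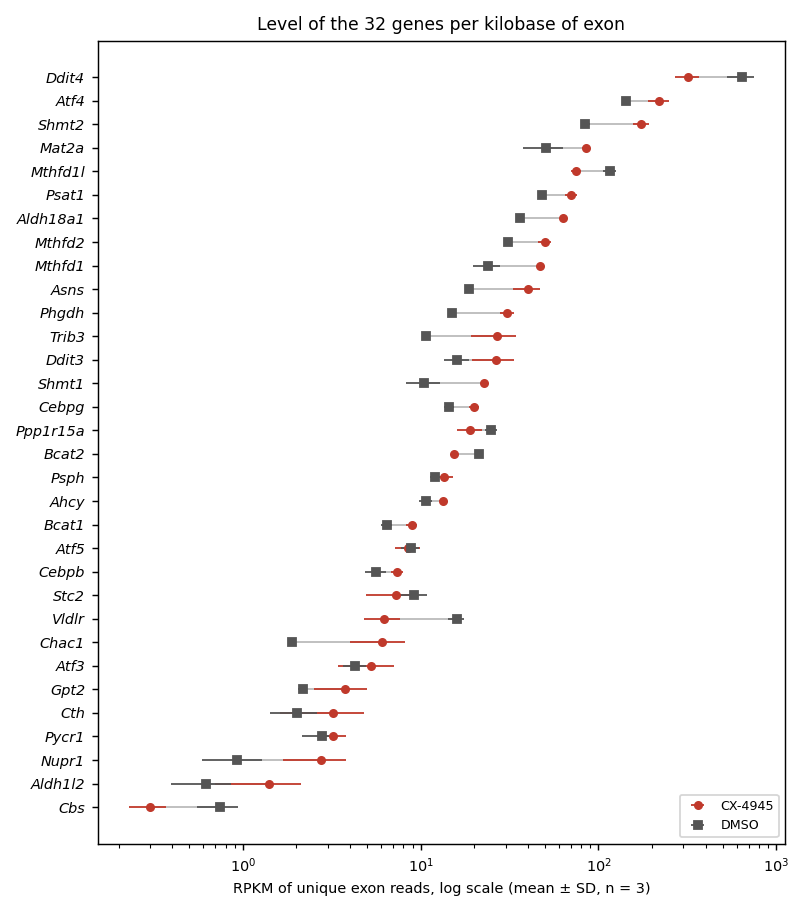
Level of the 32 genes in RPKM of unique exon reads on a log axis, as mean and SD of 3 libraries, with CX-4945 as circles and DMSO as squares, ordered by the CX-4945 level. On unique reads, which understate Ahcy and Phgdh, Ddit4 and Atf4 are the highest in both groups, and Shmt2 and Mthfd1l change places.

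Some of these levels rest on part of a gene's reads or share bases with another gene. RPKM computed from unique exon reads was compared with the group means in the authors' deposited table, which use another scaling. The ratio was 1.39 to 1.43 with CX-4945 and 1.49 to 1.53 with DMSO for 26 of the 32 genes. It was lower in both groups for the other 6, down to 0.0956 for Ahcy in each group, 0.396 with CX-4945 and 0.452 with DMSO for Phgdh, and 0.593 with CX-4945 and 0.826 with DMSO for Cebpb. Mat2a had 1.11 with CX-4945 and 1.19 with DMSO, Atf5 1.03 with CX-4945 and 1.19 with DMSO, and Ppp1r15a 1.28 with CX-4945 and 1.38 with DMSO. The unique reads of these 6 genes therefore hold less of what the authors' means hold, and their levels are low relative to other genes. The change between groups could differ too. In the authors' deposited table, the log2 difference of Cebpb was 0.79, against 0.39 on unique reads. That of Atf5 was 0.077, against -0.037, and passed in neither test. It was 1.15 against 1.04 for Phgdh, 0.27 against 0.31 for Ahcy, 0.81 against 0.75 for Mat2a and -0.40 against -0.39 for Ppp1r15a. In the authors' deposited table, Phgdh averaged 77.6 RPKM with CX-4945 and 33.1 RPKM with DMSO, Ahcy 139 RPKM with CX-4945 and 112 RPKM with DMSO, and Cebpb 12.4 RPKM with CX-4945 and 6.80 RPKM with DMSO, each in the direction of the unique reads. The order changes on those means: in the authors' deposited table, Ahcy stood above Shmt2 with CX-4945 (125 RPKM for Shmt2) and above Atf4 with DMSO (93.3 RPKM for Atf4), and Phgdh stood just above Mat2a with CX-4945 (76.8 RPKM for Mat2a).

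In the GENCODE M21 annotation, a gene on the opposite strand covers 20.7% of the exon bases of Cebpb (Tmem189), 15.9% of Bcat2 (0610005C13Rik), 14.1% of Aldh1l2 (D10Wsu102e), 11.3% of Mat2a (Particl) and 10.4% of Psph (Cct6a). Whether the counting used strand is not stated in the labels or headers, so reads on those bases cannot be assigned.

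Libraries of the same group differed along these genes. Within CX-4945, library 6 was the highest for 29 of the 32 genes (90.6%), against 39.7% of all genes tested, and library 4 the lowest for 25 (78.1%), against 37.5%. All 13 stress genes were highest in library 6. Within DMSO, library 5 was the highest for 12 of 13 stress genes (92.3%), against 39.8% of all genes, and library 3 the lowest for 11 (84.6%), against 38.9%. The 19 enzymes had no such common order in DMSO, where library 3 was the highest for 8 and library 5 for 8. Shmt1, Mthfd1 and Mat2a ran the other way, highest in CX-4945 library 2 and DMSO library 3 and lowest in CX-4945 library 6 and DMSO library 5.

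The spread between CX-4945 libraries differed from gene to gene. The ratio of the highest to the lowest CX-4945 library was 2.61 for Cth, 2.52 for Aldh1l2, 2.17 for Nupr1 and 2.06 for Chac1, the widest of the 32, and 1.503 for Cbs, the gene of the lowest level, against 1.03 for Shmt1 and 1.05 for Mthfd1. Library 6 was also the most deeply sequenced and library 4 the least. Within DMSO, library 1 was the deepest and was the highest for 0 of 13 stress genes, and library 3 was the least deep. The part of depth in these orders was not tested. Without library 6, 18 of the 32 genes were called higher and 7 lower. Leaving out any other single library gave 19 to 21 higher and 5 or 6 lower.

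**Figure D5:**
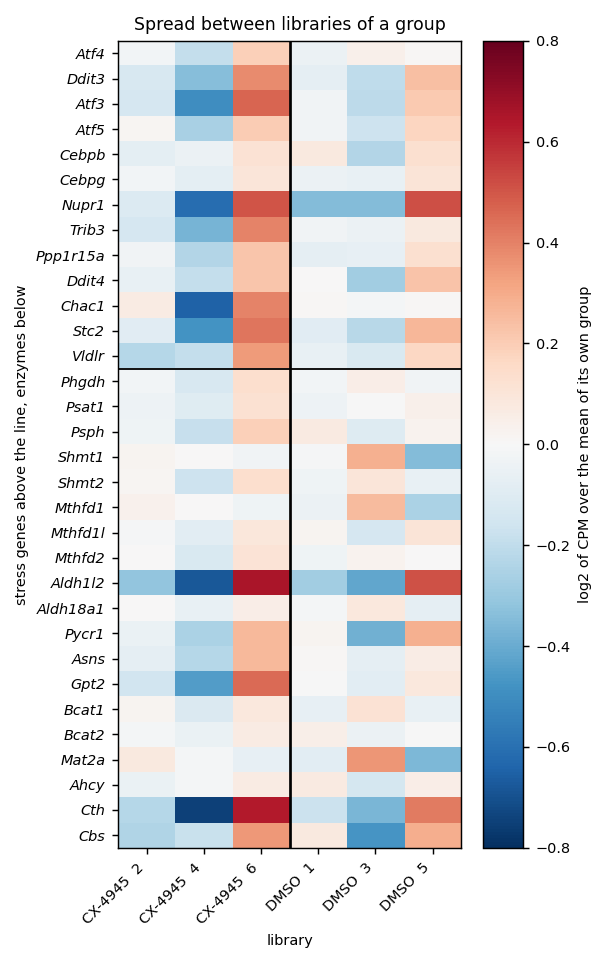
Level of each of the 32 genes in each library relative to the mean of its own group, on a log2 scale, with CX-4945 libraries left of DMSO libraries. The 13 stress genes lie highest in CX-4945 library 6, and 12 of them are highest in DMSO library 5 among the DMSO libraries.

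Upstream of ATF4, 13 genes for eIF2, its kinases and their regulators, its phosphatase and eIF2B were listed. Of these, 9 rose (69.2%) and 1 fell (7.69%), with a median log2 fold change of 0.30. Over all genes tested, 30.6% were called higher and 31.3% lower, which is the background for this list and those below. The smallest adjusted p in the list were those of Ppp1r15b, the constitutive partner of the eIF2 phosphatase, and the eIF2B subunits Eif2b4 and Eif2b3. They were 1.49-fold, 1.42-fold and 1.53-fold higher. The kinase genes Eif2ak1, Eif2ak2 and Eif2ak3, named after their values were seen, did not pass (edgeR adjusted p = 0.242, 0.475 and 0.79). The gene that fell was Eif2ak4, which encodes the amino acid sensing kinase GCN2 and was named after its value was seen, with 45.1 ± 1.51 CPM with CX-4945 and 61.0 ± 3.78 CPM with DMSO (log2 fold change -0.43 ± 0.06, edgeR adjusted p = 0.000543, SD, n = 3 each).

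Genes that import or charge amino acids moved mostly upward. Of 10 amino acid transporter genes, 9 rose (90.0%) and 0 fell, with a median log2 fold change of 0.84. Slc7a1, a cationic amino acid carrier, was 1.80-fold higher, Slc38a2, a sodium-coupled neutral amino acid carrier, 1.53-fold and Slc3a2, the heavy chain of several exchangers, 1.67-fold. Its light chain Slc7a5 (2.34-fold) and the glycine carrier Slc6a9 (3.23-fold, with 5.05 ± 1.44 CPM with CX-4945 and 1.57 ± 0.278 CPM with DMSO) were named after their values were seen. Of 20 cytosolic tRNA synthetase genes, 15 rose (75.0%) and 2 fell (10.0%), with a median of 0.52. Among them were Aars (1.96-fold higher), Mars (1.76-fold) and Tars (1.74-fold).

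Other genes linked to ATF4 mostly fell. Of 7 tested from a list of 9, 2 rose (28.6%) and 5 fell (71.4%), with a median log2 fold change of -0.54. Gdf15 and Fgf21 had too few reads to test. Vegfa, an angiogenic factor, was 2.58-fold lower, Eif4ebp1, a brake on cap-dependent translation, 2.08-fold lower, and the AP-1 repressor Jdp2 1.68-fold lower. Vegfa had 90.1, 83.6 and 116 CPM with CX-4945 and 252, 213 and 282 CPM with DMSO (edgeR adjusted p = 9.48e-05). Sesn2, named after its value was seen, was 1.31-fold higher (edgeR adjusted p = 0.0409), and this difference no longer passed when any one of CX-4945 libraries 2 and 6 and DMSO libraries 1 and 5 was left out.

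Of 17 other folate and glycine cleavage genes tested from 18, 11 rose (64.7%) and 2 fell (11.8%), with a median of 0.27. Aldh1l1, the cytosolic counterpart of Aldh1l2, had 1.33, 1.19 and 1.27 CPM with CX-4945 and 8.02, 6.22 and 8.74 CPM with DMSO. It was 6.02-fold lower, with groups far apart at a low level (log2 fold change -2.59 ± 0.18, edgeR adjusted p = 2.46e-05). Mtr and Mtrr, methionine synthase and its reductase, were each 1.75-fold higher. Tyms, the thymidylate synthase gene, named after its value was seen, was 2.24-fold higher. All 12 DNA replication and proliferation genes listed rose as well, with a median log2 fold change of 1.02. Mki67 (2.18-fold), Top2a (2.02-fold) and Ccnb1 (2.06-fold) had the smallest adjusted p, and their part in the enzyme changes was not tested.

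Of 15 other methionine, polyamine and glutathione genes, 7 rose (46.7%) and 2 fell (13.3%), with a median of 0.17. Gclm, a subunit of the glutathione-making ligase, was 1.98-fold higher, spermidine synthase Srm 1.74-fold and Ahcyl2 1.28-fold. The count of higher genes in this list was 3 without CX-4945 library 2 and 4 without CX-4945 library 6. Of 5 other proline genes, 3 rose (60.0%) and 0 fell, with a median of 0.21. Oat was 1.38-fold and Prodh 1.43-fold higher, and 1 gene of the list rose without CX-4945 library 2. The call of Prodh was lost with DESeq2 (adjusted p = 0.0802), without CX-4945 library 2 (edgeR adjusted p = 0.0564) and without CX-4945 library 6 (edgeR adjusted p = 0.0533). Of 15 genes of the endoplasmic reticulum unfolded protein response, 7 rose (46.7%) and 1 fell (6.67%), with a median of 0.17. Herpud1 was 1.47-fold higher, Sel1l had a log2 fold change of 0.32 and Edem1 was 1.44-fold lower. In this list, 4 rose without CX-4945 library 4 and 2 fell without DMSO library 5. Of 8 mitochondrial chaperone and protease genes, 5 rose (62.5%) and 1 fell (12.5%), with a median of 0.30. Clpp was 1.40-fold and Hspe1 1.31-fold higher, and Hspd1 had a log2 fold change of 0.59. Called in either direction were 53.3% of the unfolded protein response list and 75.0% of the mitochondrial list. The share was 60.0% for the other methionine list and 60.0% for the other proline list, against 61.9% of all genes tested. Myc, a transcription factor that also drives serine and one-carbon genes, was 1.21-fold lower, with 435 ± 24.3 CPM with CX-4945 and 525 ± 22.3 CPM with DMSO (SD, n = 3 each, edgeR adjusted p = 0.00471).

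The authors' own test called far fewer genes. In the authors' deposited table, 48 of 14649 genes (0.328%) had a corrected p under 0.05 and 0 of the 32 genes did, with the lowest corrected p of the 32 at 0.0729 (Bcat2).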

How the data were processed

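Total RNA was extracted with Trizol and sequenced by Genewiz, and the genome build was mm10, per the labels' protocols and the submitters' processing notes. Neither the labels nor the headers name the aligner, annotation release or strand setting. The counts of unique exon reads are raw, unscaled whole numbers for each gene that leave out reads with several possible positions, per the file headers and values. The group means in RPKM and the t-test columns are the authors' own, per the file headers, and the RPKM means were not tested. Columns name a group but no replicate number of the labels, so no pairing was used. Exon reads were the one measure used per library, and 84 other columns of values per library were not used. The design text calls the replicates biological without naming animals, so p-values reflect only how much these cultures varied.

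Low genes were removed with edgeR 4.0.16 (filterByExpr, count of at least 10 and total of at least 15), and the rest were scaled by TMM (factors 0.971 to 1.02) and tested with the quasi-likelihood F test, two-sided, in R 4.3.3. The SE is the log2 fold change's size over the square root of F. The common biological coefficient of variation was 8.55%. RPKM values with an SD were computed here from unique exon reads and exon length. The code was tested on simulated data. Replicate libraries differed beyond counting error, with a chi-square per degree of freedom of 3.74 to 26.1. The level given for 3 reads is that count converted to CPM, and not an estimate of counting error or of spread between libraries. Alternatives were DESeq2 1.42.0, other scalings and filters, a minimum fold of 1.5 and leaving out each library.

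The 32 genes, the lists and the tests were chosen with earlier results of these data known, so no list was tested and none gives independent support. Every one of the 32 is named. From each other list, up to 3 genes past the threshold with the smallest adjusted p are named, with Myc and genes stated as named after their values were seen. A gene that this rule would name is not reported here. Gene starts count from 1. Promoter sequences are from RefSeq. Figures were drawn with matplotlib 3.10.9 in Python 3.11.15.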

Additional observations from a re-analysis of the deposited data

How the results depend on the processing

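No paired analysis was possible because the columns carry none of the labels' replicate numbers. Fits on all exon reads and on intron reads were not run, since columns that name only a group were used for 1 measure. With RLE or upper-quartile scaling or no filter on low counts, every count for the 32 genes and for the other lists stayed within 1.5 times. With a minimum fold of 1.5, the counts were 661 higher and 1202 lower over all genes, 9 and 3 for the 32 genes, 3 higher for stress genes, and 6 higher and 1 lower for enzymes. The same test gave 0 higher and 0 lower for each of the eIF2, unfolded protein response and mitochondrial lists and 0 higher for other proline genes. It gave 0 higher and 2 lower for other ATF4-linked genes, 4 higher for transporters, 6 higher and 0 lower for tRNA synthetases, 4 higher and 1 lower for other folate genes, and 1 higher and 0 lower for other methionine genes. Other ATF4-linked genes called higher numbered 1 with DESeq2 and 0 with a filter of 5 CPM, which also gave 2 mitochondrial genes lower. Leaving out each library in turn gave 0 to 2 other ATF4-linked genes higher, 1 to 2 tRNA synthetases lower, 3 to 7 other methionine genes higher, 1 to 3 other proline genes higher, and 4 to 8 unfolded protein response genes higher and 1 to 2 lower. The log2 fold change of Atf3 ran from -0.00253 (without CX-4945 library 6) to 0.50, and that of Atf5 from -0.15 to 0.077 (without CX-4945 library 4; 0.056 without DMSO library 5). Neither gene passed in any of these fits. The causes were not tested. Of the 32 genes, Aldh1l2, Cth and Nupr1 had the widest SE of the log2 fold change, at 0.37, 0.35 and 0.33.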
